A study of Mus musculus with 1 sample.

Results

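In the newborn mouse cortex, 349 cell barcodes carried the transcripts of excitatory neurons together with high Scg2 and with Npy, Fosl2 or Vegfd. They were chosen by a gate on unique molecular identifier (UMI) counts, each UMI standing for 1 captured transcript. A barcode was selected on at least 1000 detected genes, at least 2 UMIs of Neurod2 and Neurod6 together, at most 1 UMI of Gad1 and Gad2 together, at least 3 UMIs of Scg2, at least 2 UMIs of Npy, Fosl2 and Vegfd together, and no UMI of Top2a or Mki67. Of the 11062 barcodes in the library, 9018 had at least 1000 genes and 7285 of these met the Neurod and Gad conditions and are called excitatory here. The gated barcodes made up 4.79% of the excitatory barcodes (exact binomial 95% interval 4.31 to 5.31, counting error only, as for all intervals given here). Tbr1, a factor of cortical excitatory neurons, had a UMI in 71.6% of them and the glutamate transporter gene Slc17a7 in 47.0%, against 1.72% for Slc32a1, the transporter of inhibitory neurons.

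The library came from the cerebral cortex of wild-type C57BL/6 mice at P0, the day of birth. The tissue was dissociated with papain, and single cells were barcoded with the 10x Genomics 3′ droplet chemistry. There was 1 library, and the number of animals behind it is not given in the sources used here, so no difference was tested and no p-value is given. The study's knock-in group was not analysed here.

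Scg2 encodes secretogranin II, an acidic protein of dense core vesicles, the organelles from which neurons release peptides. Npy encodes neuropeptide Y, which in the mature cortex is best known from inhibitory interneurons. Fosl2 encodes a subunit of the transcription factor AP-1, Vegfd a growth factor of the vascular endothelial growth factor (VEGF) family that acts on dendrites in hippocampal neurons, and Galnt14 an enzyme that starts O-linked sugar chains on proteins. Several of these genes are known to respond to neuronal activity, while excitatory neurons of the cortex also differ by layer, through transcription factors such as Cux1 and Cux2 in the upper layers and Bcl11b, Fezf2, Tle4 and Foxp2 in the deep layers. The question was therefore in which of these gene groups the gated barcodes differed from other excitatory neurons of like depth.

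The UMI minimums of the gate favoured deeply sequenced barcodes. With the excitatory barcodes in 4 groups of like size by depth, the gated share was 0.769% in the shallowest, 1.59% and 6.21% in the following groups and 10.6% in the deepest. When every barcode was thinned at random to 4000 UMIs and the same gate was applied, 123 of 6084 excitatory barcodes (2.02%) passed, and 117 of these had also passed as deposited. Each gated barcode was therefore set against the 3 unused other excitatory barcodes nearest in total UMIs, 1047 in all, called matched barcodes below. The median depth was 13356 UMIs in the gated (range 4101 to 54430) and 13352 in the matched barcodes, against 8867 in all 6936 other excitatory barcodes and 7196 in the whole library of 90346034 UMIs.

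Other signs of quality were alike in the gated and matched barcodes. The median number of detected genes was 4393 and 4349, and after thinning to 4000 UMIs it was 2102 and 2064. The median mitochondrial share of UMIs was 3.21% and 3.18%, and that of ribosomal protein transcripts 9.29% and 10.4%. Scrublet marked 40 of the gated barcodes as doublets (11.5%, 8.32 to 15.3) and 129 of the matched ones (12.3%), against 6.66% of all other excitatory barcodes. Both groups thus held a larger share of marked doublets than all other excitatory barcodes. That larger group includes the matched barcodes and has a lower median depth.

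The genes of the gate are given as a description only, since they chose the members. Levels are in CPM, that is the UMIs of a gene summed over a group per 1000000 non-mitochondrial UMIs of that group, and a ratio is the gated level over the matched level. Scg2 ranged from 3 to 43 UMIs per gated barcode with a median of 6, and its level was 552 CPM against 22.4 CPM. Npy ranged from 0 to 163 UMIs with a median of 17, and its level was 1717 CPM against 362 CPM. Npy was thus abundant in the matched barcodes too, where 46.1% of barcodes had a UMI and the highest held 179. Fosl2 was at 70.8 CPM against 8.39 CPM and Vegfd at 30.5 CPM against 2.03 CPM, with a UMI in 47.3% and 20.9% of the gated barcodes. Most members entered through Npy: 164 (47.0%) had Npy and neither of the other genes, 111 had Npy and Fosl2, 52 had all 3 genes, 20 had Npy and Vegfd, and only 2 had no Npy. Neurod6, a transcription factor of cortical excitatory neurons, was at 1164 CPM against 758 CPM, whereas its relative Neurod2 was at 363 CPM against 548 CPM.

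The plot of UMIs per barcode shows these values for single barcodes. Scg2 had UMIs in every gated barcode by the terms of the gate, and Npy in 99.4%. The gate required that Npy, Fosl2 and Vegfd reach their minimum together. In the matched barcodes too Npy was the most abundant of these, at 362 CPM against 8.39 CPM for Fosl2 and 2.03 CPM for Vegfd. The high share of Npy thus follows in part from the gate.

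**Figure D1:**
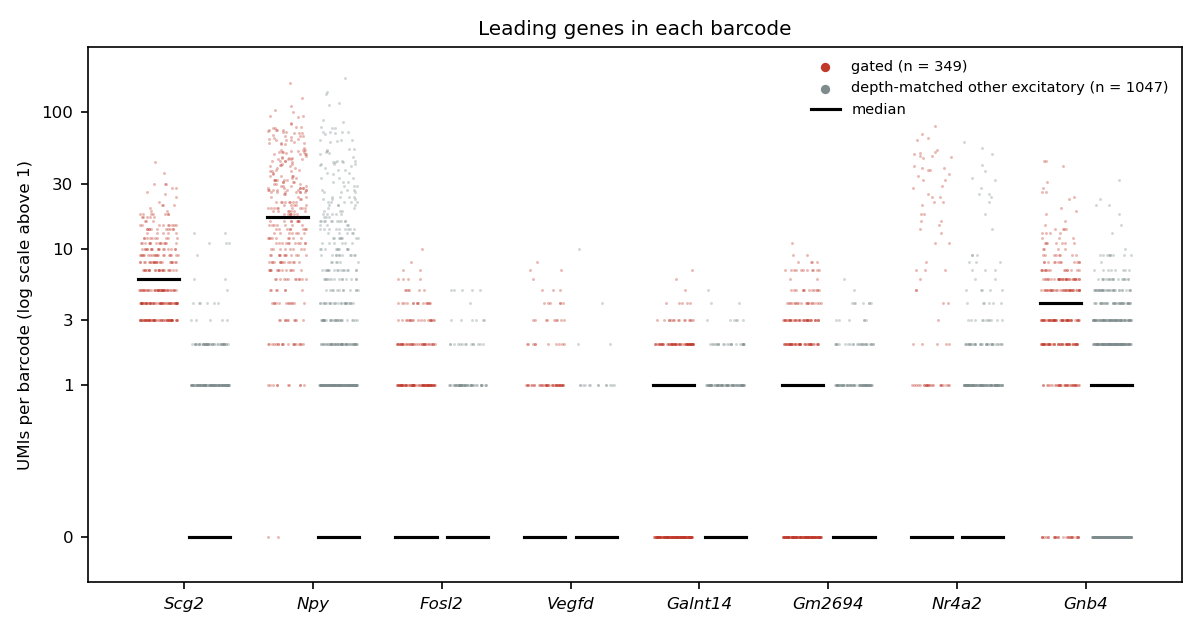
UMIs per barcode (vertical axis, log scale above 1) of 8 genes in the 349 gated barcodes (red) and the 1047 matched barcodes (grey), with the median as a black line. Scg2, Npy, Fosl2 and Vegfd are genes of the gate, and among the others Galnt14 and Gm2694 had a median of 1 in the gated and 0 in the matched barcodes, while the high Nr4a2 counts sat in few barcodes of either group.

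The limits of the gate cut through a graded range. The 58 members with exactly 3 Scg2 UMIs had Galnt14, which is no gate gene, at 52.0 CPM, and the 95 barcodes with 2 Scg2 UMIs that met every other condition had it at 33.9 CPM. The 15 members with exactly 2 UMIs of Npy, Fosl2 and Vegfd had Galnt14 at 41.7 CPM, and the 33 barcodes with 1 such UMI had it at 19.7 CPM. The 5247 excitatory barcodes below both limits and without Top2a or Mki67 had it at 5.61 CPM. In these groups Galnt14 was lower just outside either limit than just inside, and lowest far outside. The same order held for Gm2694, at 70.5 and 43.3 CPM on the 2 sides of the Scg2 limit and at 6.09 CPM below both limits. Nr4a2 was alike on the 2 sides of the other limit, at 1029 and 1027 CPM. The groups at that limit are small, and no interval was computed for these levels.

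Some excitatory barcodes without Top2a or Mki67 met only part of the gate. The 90 with at least 3 Scg2 UMIs and fewer than 2 of Npy, Fosl2 and Vegfd, which are low in these genes by that choice, held Nr4a2, a nuclear receptor of claustrum, insula and subplate neurons, at 1115 CPM. In the other direction, the 1309 of them with at least 2 UMIs of Npy, Fosl2 and Vegfd together and under 3 Scg2 UMIs held Nr4a2 at 32.4 CPM and Bcl11b, a transcription factor of layer V projection neurons, at 243 CPM. The gated barcodes lay between these groups in Nr4a2 (277 CPM) and below both in Bcl11b (31.9 CPM).

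Over all 7285 excitatory barcodes, grouped by their Scg2 count, the levels of several genes followed that count. Galnt14 was at 7.83 CPM in the 6134 barcodes without Scg2, 23.9 CPM in the 180 with 2 UMIs and 66.6 CPM in the 144 with 9 or more. Over the same groups Gnb4, a G protein subunit, was at 67.4, 146 and 507 CPM. Rorb, a transcription factor of layer IV, was highest in the barcodes with 2 Scg2 UMIs (231 CPM) and lowest in those with 9 or more (40.9 CPM). Fos, the classic immediate early gene, did not follow the count in 1 direction. It was at 47.5 CPM without Scg2, between 58.1 and 62.4 CPM in the groups with 1, 2 and 3 to 4 UMIs, and at 26.1 CPM with 9 or more. The groups differ in depth, with medians from 8420 UMIs in barcodes without Scg2 to 13942 in those with 3 to 4.

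**Figure D2:**
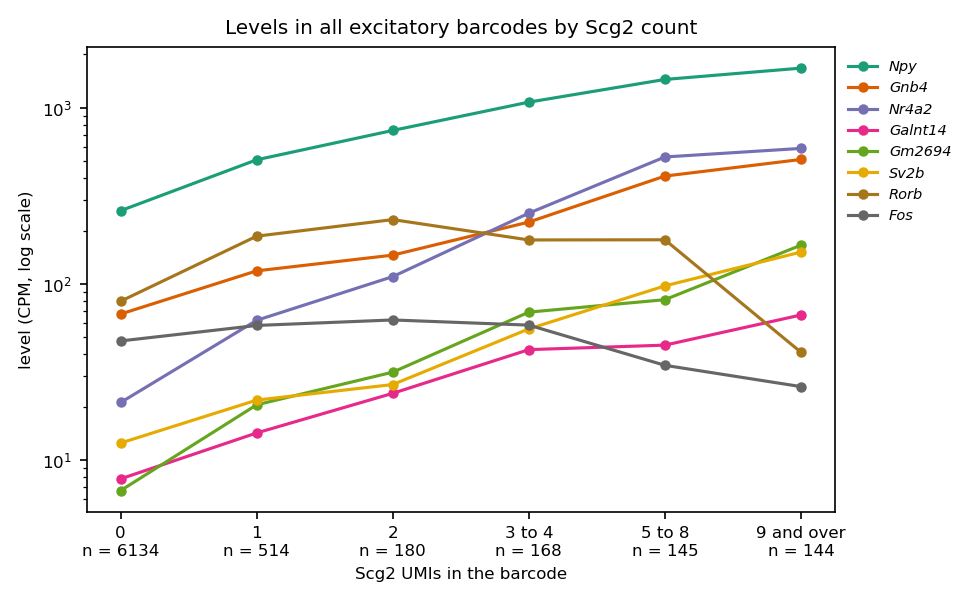
Level of 8 genes (CPM, log scale) in all 7285 excitatory barcodes grouped by their number of Scg2 UMIs, with the number of barcodes under each group. Npy, Gnb4, Nr4a2, Galnt14, Gm2694 and Sv2b are higher in each group with more Scg2 UMIs, Rorb drops to 40.9 CPM at 9 and over, and Fos ends lowest at 26.1 CPM.

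Across the transcriptome, 10721 genes outside the gate had at least 100 UMIs over both groups. Of these, 489 (4.56%) were at least 1.5-fold higher in the gated than in the matched barcodes and 536 (5.0%) at least 1.5-fold lower, the limits used for all counts below. The median ratio was 0.997. Since the groups were chosen on the same cells, these ratios describe them and no list below is a test. For 32 of the 1025 genes past a limit, the counting interval of the ratio held 1.

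Among genes with a UMI in at least 25% of the gated barcodes, the highest ratio was that of Gm2694, a long noncoding RNA, at 113 CPM against 11.7 CPM, a ratio of 9.67 (8.16 to 11.5). It had a UMI in 61.0% of the gated and 10.6% of the matched barcodes. Gm2694 lies partly over Cbln1, on the opposite strand in the GENCODE M21 annotation. Cbln1, which encodes a secreted organizer of synapses, was itself 3.75-fold higher (3.16 to 4.45). Whether the levels of the pair are linked was not tested. Galnt14 followed under the same limit, at 59.0 CPM against 10.2 CPM, a ratio of 5.80 (4.77 to 7.09), with a UMI in 51.3% against 10.5% of barcodes. Of the 5 marker genes it is the one the gate did not use.

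The 20 highest ratios under this limit also included the following genes. Sv2b, a synaptic vesicle protein, was at 96.0 CPM against 17.6 CPM, a ratio of 5.44 (4.68 to 6.34). Syn2, a synapsin that tethers synaptic vesicles, had a ratio of 4.13 (3.55 to 4.81). Il1rap, the accessory protein of the interleukin 1 receptor, which also acts in synapse formation, had a ratio of 5.56 (4.57 to 6.79). These genes were low in the matched barcodes, where no more than 18.8% of barcodes had a UMI of any single one of them. Negr1 (3.85) and Lrrtm3 (3.74) encode adhesion proteins of neurons, Trpc5 (3.62) a calcium-permeable channel and Gabrg3 (3.29) a subunit of GABA receptors. Gnb4 was at 342 CPM against 98.4 CPM (3.48) and had a UMI in 91.7% of the gated barcodes. Vsnl1, a neuronal calcium sensor, was at 223 CPM against 65.5 CPM (3.40). Plcxd3 (5.64), Akap13 (3.98), Hs3st2 (3.65), a sulfotransferase acting on heparan sulfate, St6galnac5 (3.29), a sialyltransferase, and Peli2 (3.28) completed the named coding genes. Il1rapl2, a relative of Il1rap, had a ratio of 7.88 (5.50 to 11.5) and was left off this list because only 22.9% of the gated barcodes had a UMI. It is named here after its value was seen.

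The other 3 of the 20 highest were noncoding gene models. Gm42946 lies inside Negr1, and Gm37011 and Gm38260 carry ratios of 3.40 and 3.27. Both of the latter are among 19 tested models that lie inside Adgrb3 on the same strand. All 19 were higher, against 4.56% of all genes, with ratios from 2.10 to 3.40 and a median of 2.70. Adgrb3, an adhesion receptor that binds C1q-like proteins at synapses, was itself 1.59-fold higher (1.5 to 1.69), at 318 CPM against 200 CPM. Reads of a gene and of models inside it on the same strand may be shared, and whether these 19 are transcripts of their own was not tested.

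Among genes with a UMI in at least 25% of the matched barcodes, the 10 lowest ratios included 4 genes of the layer V and layer VI lists, Bcl11b, Tle4, Hs3st4 and Foxp2. Rarer genes had lower ratios still, among them Hist1h1b and Nts, without a UMI in the gated barcodes, and the vascular gene Cldn5 (0.0692, in 0.860% of barcodes of either group). Bcl11b was at 31.9 CPM against 199 CPM, a ratio of 0.160 (0.136 to 0.187), with a UMI in 15.8% against 36.7% of barcodes. Tle4, a corepressor of layer VI neurons, was at 29.3 CPM against 149 CPM (0.197), its relative Tle1 had a ratio of 0.256, Foxp2 one of 0.299, and Hs3st4, a layer VI sulfotransferase, one of 0.235. The others were Islr2 (0.221), which acts in axon guidance, the ephrin receptor Ephb1 (0.303), the young-neuron gene Igfbpl1 (0.328), the upper-layer transcription factor Pou3f1 (0.330, 209 CPM against 633 CPM) and the GABA receptor subunit Gabra2 (0.352).

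**Figure D3:**
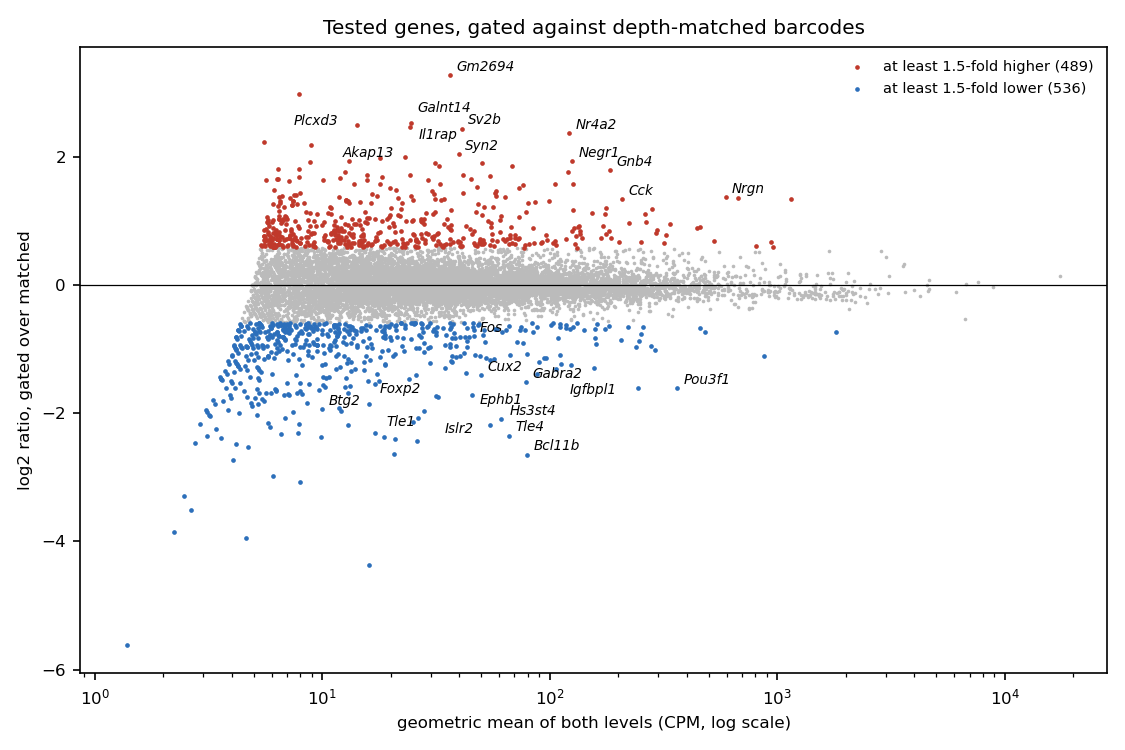
Log2 ratio of the gated over the matched level (vertical axis) against the geometric mean of both levels (CPM, log scale) for the tested genes, with genes at least 1.5-fold higher in red (489) and lower in blue (536). Gm2694 stands at the top, Bcl11b is the lowest of the genes found in at least 25% of the matched barcodes, and 2 genes without a UMI in the gated barcodes (Hist1h1b and Nts) cannot be drawn.

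Because a gene counted in the same UMIs as the gate can differ through counting noise, the UMIs of each barcode were also divided at random between 2 equal shares, with the gate applied to one and the levels read from the other. The gate then chose 208 barcodes, set against 624 matched ones. In the UMIs not used for the choice, Scg2 was still 16.2-fold higher (13.9 to 19.1), Npy 4.79-fold, Fosl2 7.59-fold and Vegfd 13.6-fold. Galnt14 was 5.14-fold higher (3.66 to 7.28), Gm2694 7.77-fold and Nr4a2 3.74-fold, and Bcl11b had a ratio of 0.186. The UMIs are from the same cells, so this is no replicate.

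Shares of barcodes with a UMI were also compared at equal depth, with glial barcodes as a further group. After thinning to 4000 UMIs, Galnt14 had a UMI in 22.6% of the gated barcodes (18.4 to 27.4), 3.15% of the matched ones and 0.952% of 315 glial barcodes, which held at least 5 UMIs of Slc1a3 and Fabp7 and none of the Neurod or Gad genes. Gm2694 had a UMI in 31.8%, 2.87% and 0.635%, and Sv2b in 28.1%, 6.11% and 0.317%. The glial barcodes had a median of 7632 UMIs before thinning. Barcodes with Neurod or Gad UMIs were barred from this group, and its shares can hold free RNA as well as transcripts of glia. These sources were not told apart, so the glial shares are no clean background for free RNA. The 20 genes with the highest ratios were chosen on these same gated barcodes, in part for a minimum share of them with a UMI. A high gated share was thus in part a condition of the choice. Their count against the glial barcodes is therefore a description and no test of background. Of these 20 genes, 17 had a gated share whose interval lay above the glial one. The other 3 had a lower share in gated than in glial barcodes, Akap13 with 17.5% against 23.5%, St6galnac5 with 12% against 24.4% and Peli2 with 27.8% against 33.7%. In the matched barcodes the intervals of Galnt14 and Gm2694 overlapped with the glial ones, and that of Sv2b did not. For Scg2 the thinned glial share was 1.27% and for Npy 6.35%, against 28.8% for Npy in the matched barcodes.

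Genes that respond to neuronal activity passed the limits in both directions. Of 27 immediate early genes, which are transcribed within minutes of stimulation, 16 had enough UMIs. Of these, 2 were higher (12.5%, against 4.56% of all genes) and 6 were lower (37.5%, against 5.0%), with a median ratio of 1.10 against 0.997 over all tested genes. Fos was at 35.2 CPM against 60.9 CPM (0.578), Egr1 at 31.1 CPM against 60.3 CPM (0.515) and Btg2 at 5.11 CPM against 19.6 CPM (0.261). Fosb, Ier2 and Ier5 were the other lower members, with ratios of 0.469, 0.539 and 0.539. Fos UMIs ranged from 0 to 9 in the gated and 0 to 46 in the matched barcodes, with a median of 0 in both. After thinning, Fos had a UMI in 10.3% of the gated, 15.6% of the matched and 54.0% of the glial barcodes. These shares were 8.88%, 14.7% and 64.1% for Egr1, and 1.72%, 4.11% and 47.9% for Btg2. The highest matched barcode held 60 of the 299 matched Btg2 UMIs. The astrocyte and radial glia markers summed to 115 CPM in the gated and 236 CPM in the matched barcodes. How far glial transcripts account for the lower ratios was not tested. The higher members were both nuclear receptors of one family, Nr4a2 (5.19, 4.76 to 5.67) and Nr4a3 (2.97, 2.66 to 3.31), while the third, Nr4a1, had a ratio of 1.11. Npas4 and Arc, 2 genes induced in neurons in particular, were too rare to be tested, with 27 and 0 UMIs in the gated barcodes. Jun (1.28), Junb (1.11) and Jund (1.14), the partners of Fosl2 in AP-1, were inside the limits.

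Nr4a2 and Nr4a3 were spread differently over the barcodes. Nr4a3 had a UMI in 66.2% of the gated and 34.1% of the matched barcodes, with a median of 1 UMI against 0. It was not past the limits in all members. With at least 2 Nr4a2 UMIs, members had an Nr4a3 ratio of 1.34 (0.933 to 1.90) to their own matched barcodes. In further members with at least 2 Rorb UMIs the Nr4a3 ratio was 0.941 (0.632 to 1.37). Nr4a2 had a UMI in 21.8% of the gated and 18.9% of the matched barcodes, with up to 79 UMIs in 1 gated barcode. Its higher level thus came from a small number of members, described below.

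Late activity genes and signalling genes gave small counts in both directions. Of 17 tested late activity-response genes of 30, 3 were higher (17.7%, against 4.56% of all genes), namely Rgs2 (1.93), a brake on G protein signalling, Plk3 (1.66) and the neurotrophin Bdnf (1.64, 1.06 to 2.49), and 2 were lower (11.8%, against 5.0%), Nrn1 (0.626) and Crem (0.640, 0.385 to 1.02). The interval of Crem held 1, and without the members with at least 2 Nr4a2 UMIs the ratio of Bdnf was 0.445. Homer1 (0.933), Vgf (0.915) and Inhba (1.05) were inside the limits. Of 8 tested AP-1 family genes of 15, Jdp2 (1.93), a repressor, was higher (12.5%), and Fos and Fosb were lower (25%). Of 11 tested feedback genes of the ERK kinase pathway of 15, the phosphatase gene Dusp6 (1.64) was higher (9.09%), and Dusp4 (0.522), Phlda1 (0.571) and Etv5 (0.639) were lower (27.3%).

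Genes of the 7 stress and injury lists passed the limits about as often as all genes. Of 79 tested, 4 were higher (5.06%, against 4.56% of all genes) and 4 were lower (5.06%, against 5.0%). Of 11 tested heat shock genes of 15, only Hsph1 was higher (9.09%, with a ratio of 1.60 and 117 CPM against 73.6 CPM), with a list median of 1.03. Hspa1a and Hspa1b, the most inducible members, had 2 and 1 UMIs in the gated barcodes. Of 11 tested genes of the integrated stress response of 18, none was higher, and Phgdh (0.522) and Ddit4 (0.584) were lower (18.2%). Its central transcription factors Atf4 (0.897) and Ddit3 (0.782) were inside the limits. Of 14 tested endoplasmic reticulum stress genes of 15, Edem1 alone was higher (1.58), and the chaperone Hspa5 had a ratio of 1.03. Of 11 tested p53 targets of 17, Phlda3 alone was higher (1.55). None of 11 tested hypoxia genes of 15 passed either limit (list median 0.910). Among 10 tested glucocorticoid and metal response genes of 12, Zbtb16 (1.79) was higher and the metallothionein Mt3 (0.661) lower. Of 11 tested axon injury genes of 21, none was higher and the neurotrophin receptor Ngfr (0.196) was lower, and Atf3, an early marker of injury, had no UMI in the gated barcodes.

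Scg2 works in the regulated secretory pathway. Of 15 tested dense core vesicle genes of 16, 4 were higher (26.7%, against 4.56% of all genes), none was lower, and the median ratio was 1.24, while 11 did not pass a limit. Syt4, a synaptotagmin of dense core vesicles, was at 1827 CPM against 722 CPM (2.53, 2.46 to 2.60) and had a UMI in 95.7% of the gated and 84.2% of the matched barcodes. Pcsk2, a protease that cuts prohormones, was at 270.3 CPM against 117 CPM (2.32, 2.16 to 2.49). Ptprn (1.75), a protein of the vesicle membrane, and Cadps2 (1.69), which primes vesicles for release, were the other 2. The granins Chga (1.39), Chgb (1.24) and Scg3 (0.994), the granin-related Vgf, the processing enzyme gene Cpe (1.03) and the amidating enzyme gene Pam (0.742) were inside the limits.

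Among other neuropeptide genes, 5 of 18 were tested, with 2 higher (40%, against 4.56% of all genes) and 2 lower (40%, against 5.0%). Cck, which encodes cholecystokinin, was at 329 CPM against 130 CPM (2.53, 2.37 to 2.70), and the gastrin-releasing peptide gene Grp at 81.0 CPM against 50.2 CPM (1.61). Nts, for neurotensin, had no UMI in the gated barcodes against 17.5 CPM in the matched ones, where only 1.72% of barcodes had a UMI. Nxph4 had a ratio of 0.210. Of 4 receptors of neuropeptide Y only Npy1r was tested (1.30). Of 4 tested VEGF ligands and receptors of 9, Vegfc was lower (25%, with a ratio of 0.666). The interval of Vegfc held 1 (0.389 to 1.09). Vegfa (1.42) and the coreceptor gene Nrp1 (1.48) were inside the limits. Of 9 tested genes of O-linked glycosylation of 13, C1galt1c1 was higher (1.82) and Galnt9 lower (0.216), 11.1% in each direction and 1 gene each. Wbscr17, an older symbol of Galnt17, was 3.15-fold higher (2.73 to 3.62), a value looked up after the list had been counted.

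Genes of the deep layers were among those with the largest shares of lower members. Of 10 tested layer V genes, 8 were lower (80%, against 5.0% of all genes) and none was higher, with a median ratio of 0.482. They included Bcl11b, Crym (0.161), Etv1 (0.194), Pcp4 (0.237) and Fezf2 (0.448), while Ldb2 (1.20) and Crim1 (1.28) were inside the limits. Of 10 tested layer VI genes, 5 were lower (50%, against 5.0% of all genes, median 0.516), among them Zfpm2 (0.193), Tle4 and Foxp2. The other 5 were inside the limits, including Tbr1 (1.13), Sox5 (1.25), Nfia (0.677) and Rprm (1.34, 376 CPM against 281 CPM).

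Of 12 tested layer II/III genes, 5 were lower (41.7%, against 5.0% of all genes) and 1 was higher (8.33%, against 4.56%), Cadps2. The lower ones were the POU factors Pou3f1, Pou3f2 (0.516) and Pou3f3 (0.495) and the cut-like factors Cux1 (0.528, 116 CPM against 219 CPM) and Cux2 (0.377, 30.7 CPM against 81.4 CPM). Of 4 tested layer IV genes of 8, Dscaml1 was lower (25%, with a ratio of 0.559) and Rorb had a ratio of 1.09 (0.999 to 1.19). Rorb had a UMI in fewer gated (25.5%) than matched barcodes (39.7%), and 631 of its 690 gated UMIs were in 49 members. Of 3 tested layer VIb genes of 9, Nxph4 was lower (33.3%). Of 5 tested claustrum and insula genes of 7, Nr4a2 and Gnb4 were higher (40%), Nr2f2 (1.10) and Gng2 (1.01) were inside the limits, and Synpr and Ntng2 were too rare to be tested, with 9 and 14 UMIs. Nr4a2 stands in this list and in that of immediate early genes. Of 3 tested hippocampal genes of 10, Zbtb20 (0.405) and Etv1 were lower (66.7%).

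**Figure D4:**
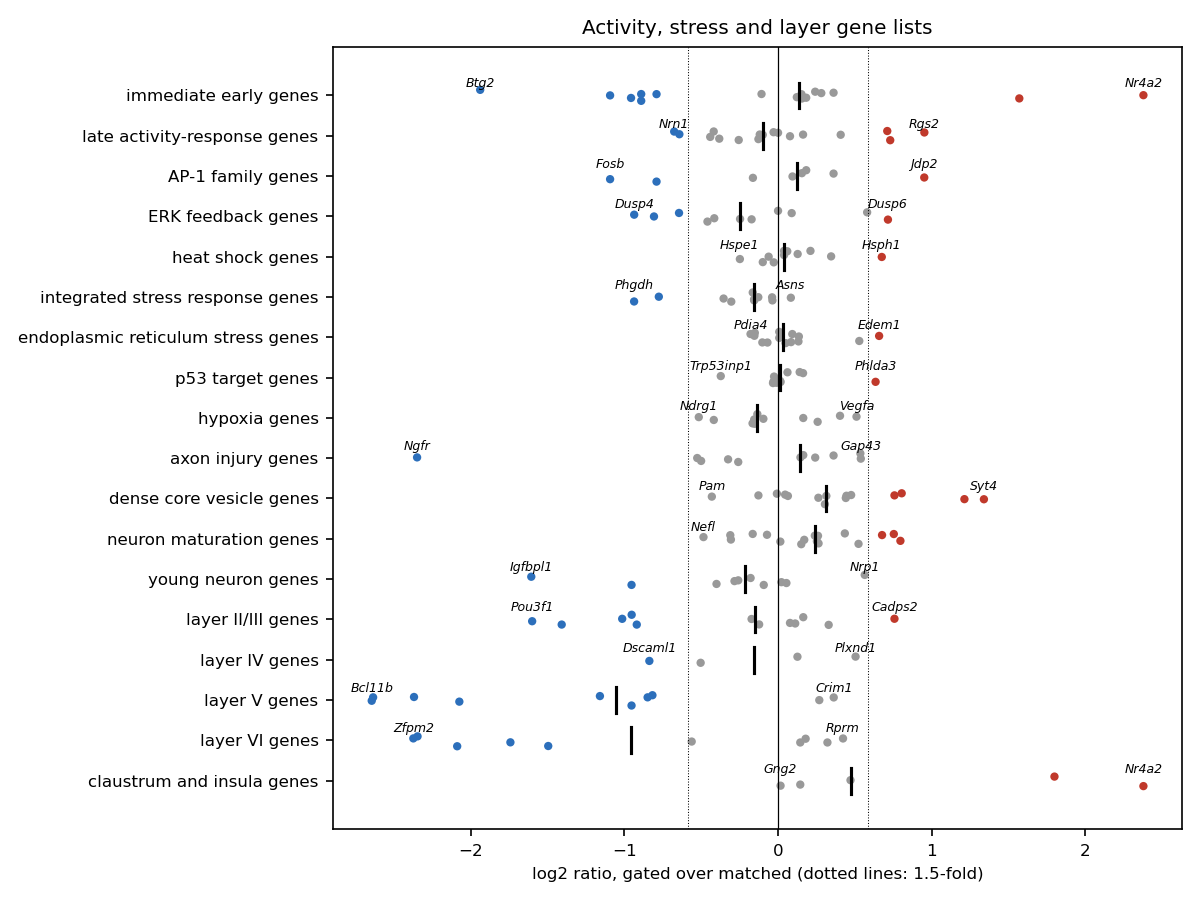
Log2 ratio of the gated over the matched level (horizontal axis, dotted lines at 1.5-fold) for the tested members of 18 gene lists, with the list median as a black bar and members past the limits in red or blue. The medians of the stress lists lie close to 0, those of layers V and VI lie at ratios of 0.482 and 0.516, and the immediate early genes spread from Btg2 (0.261) to Nr4a2 (5.19).

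Of 17 tested genes of neuronal maturation, 3 were higher (17.7%, against 4.56% of all genes), none was lower and 14 did not pass a limit (median 1.18). The higher ones included Gria1 (1.69), a glutamate receptor subunit, and Slc17a7 (1.60), the vesicular glutamate transporter of mature cortical neurons. Members inside the limits reached down to the neurofilament genes Nefl (0.714) and Nefm (0.808) and to Camk2a (0.806). Slc17a6, the transporter that prevails earlier in development, was lower at 30.5 CPM against 46.3 CPM (0.658, 0.550 to 0.785). These directions did not hold for both transporters in all groups of members described below. Of 10 tested young-neuron genes of 13, Igfbpl1 and Sstr2 (0.516) were lower (20%, against 5.0%) and none was higher (median 0.859). Dcx (1.04) and Tubb2b (1.01), which are expressed in all young neurons, were close to 1. Of 18 tested channel genes of 19, 2 were higher (11.1%), among them Cacna1b (1.5), and Cacna2d3 (0.464) was lower (5.56%). Of 5 tested neurotrophin genes of 8, Bdnf was higher (20%), and Ntrk3 (0.622) and Ngfr were lower (40%).

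Marker lists of other cell types differed in how their summed levels compared. Of 7 further excitatory markers Slc17a7 was higher (14.3%, against 4.56% of all genes), and Slc17a6, Bhlhe22 (0.555) and Nrn1 were lower (42.9%, against 5.0%). The 14 inhibitory markers summed to 39.1 CPM against 41.4 CPM, a ratio whose interval held 1 (0.944, 0.801 to 1.11). Only 2 were tested, of which 1 was higher (50%, against 4.56% of all genes) and the other inside the limits, and the GABA transporter gene Slc32a1 had 6 UMIs in the gated barcodes. The 9 astrocyte and radial glia markers summed to 115 CPM against 236 CPM (0.489, 0.447 to 0.533), with 4 of 5 tested genes lower (80%, against 5.0% of all genes), the 7 oligodendrocyte markers to 35 CPM against 45.8 CPM (0.765, 0.645 to 0.903), with 2 of 3 lower (66.7%), and the 9 vascular markers to 11.6 CPM against 43.9 CPM (0.265, 0.199 to 0.346), with all 4 tested genes lower (100%). The 8 microglia markers summed to 1.38 CPM against 1.44 CPM (0.954, 0.344 to 2.31) and none was tested, C1qa, C1qb, C1qc and Tyrobp being at 0. The 6 Cajal-Retzius markers summed to 41.1 CPM against 51.6 CPM (0.796, 0.680 to 0.929), with neither of 2 tested genes past a limit. Of 4 tested cycling genes of 8, 2 were lower (50%), in part by the terms of the gate, which barred Top2a and Mki67 only from the gated barcodes. The matched side of all these sums could therefore hold barcodes with Top2a or Mki67. Some vascular UMIs sat in few barcodes. Flt1 had 54 UMIs in 0.669% of the matched barcodes and 4 in 1.15% of the gated ones, and Kdr 19 in 0.191% of the matched.

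Each barcode was also placed by its layer genes. It was called upper-leaning with at least 2 UMIs of Cux1 and Cux2 and over 2 times as many of these as of Bcl11b, Fezf2, Tle4 and Foxp2 together, and deep-leaning in the reverse case. Among the gated barcodes 76 (21.8%, 17.6 to 26.5) leaned to the upper layers, 46 (13.2%, 9.81 to 17.2) to the deep layers and 227 (65.0%, 59.8 to 70.0) to neither. Among the matched barcodes the shares were 48.0%, 31.6% and 20.3%. Lack of both gene sets was the more common form: 197 gated barcodes (56.4%, 51.1 to 61.7) had under 2 UMIs of each set, against 130 matched ones (12.4%), at equal depth. From the other side, the gate held 2.14% of the upper-leaning, 2.63% of the deep-leaning and 11.5% of the remaining excitatory barcodes.

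Several leading genes were higher in gated than in matched barcodes of each layer class. Within a class the groups were no longer matched in depth, with median UMIs of 14300 against 12317 in upper-leaning, 19248 against 14977 in deep-leaning and 12413 against 14282 in the remaining barcodes, and the classes themselves depend on UMI counts. Gm2694 had a ratio of 11.1 (8.12 to 15.5) in upper-leaning, 12.9 (8.44 to 20.2) in deep-leaning and 4.75 (3.75 to 6.07) in the remaining barcodes. Galnt14 had ratios of 10.6, 3.16 and 4.83, and Sv2b ratios of 14.8, 2.52 and 3.62. Igfbpl1 was lower in each class (0.492, 0.487 and 0.236). Fos had ratios of 0.401 (0.278 to 0.563) in upper-leaning, 1.43 (1.06 to 1.90) in deep-leaning and 0.502 (0.381 to 0.656) in the remaining barcodes, and Egr1 ratios of 0.242, 1.12 and 0.446. Btg2 was lower in each class (0.299, 0.155 and 0.257). Nr4a2 had a ratio of 11.1 (9.94 to 12.4) in upper-leaning but 0.813 (0.536 to 1.19) in deep-leaning barcodes. The deep-leaning class held only 46 gated barcodes, and the difference between classes was not tested.

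The gated barcodes were not uniform, and 3 strata were drawn after values had been seen. The first held the 53 members (15.2%) with at least 2 Nr4a2 UMIs, the second the 49 further members (14.0%) with at least 2 Rorb UMIs, the third the 107 further members (30.7%) with at least 2 UMIs of Fosl2 and Vegfd together, and 140 (40.1%) remained. Each stratum was set against its own matched barcodes, which were matched by depth alone and not by the genes that define the stratum. Of all matched barcodes, 7.74% had at least 2 Nr4a2 UMIs and 25.9% at least 2 Rorb UMIs. The genes that define a stratum are a description. Nr4a2 and Rorb reached 2 UMIs together in 9 members, Rorb and the Fosl2 and Vegfd pair in 3, and Nr4a2 and that pair in 11.

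In the Nr4a2 stratum Nr4a2 was at 1802 CPM, and 36 of the 53 members leaned to the upper layers and 1 to the deep layers. Gnb4 was at 750 CPM against 91.8 CPM (8.17, 6.97 to 9.61) and had a UMI in 96.2% of the members. Samd5 was 15.1-fold higher (9.90 to 23.7). Fst, which encodes the activin inhibitor follistatin, was at 600.3 CPM against 55.7 CPM (10.8), yet only 47.2% of the members had a UMI of it. The metallothionein Mt1 (11.0), the growth factor Pdgfc (10.2) and the receptor Npy1r (4.52) were also higher. Gm2694 was 15.7-fold higher, whereas Galnt14 was 3.59-fold and Npy 2.08-fold higher, the smallest Npy ratio of the strata. Cux1 was 1.49-fold higher and Cux2 had a ratio of 0.890, so these factors were not low here. Slc17a6 was 2.45-fold higher (1.81 to 3.31), and Slc17a7 had a ratio of 0.697. High Gnb4 was not particular to gated barcodes with Nr4a2. The 90 ungated barcodes with at least 3 Scg2 UMIs described above held Nr4a2 at 1115 CPM and Gnb4 at 497 CPM.

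In the Rorb stratum the members were deeper than elsewhere, with a median of 19114 UMIs, and Rorb was at 658 CPM. Plxnd1, a semaphorin receptor of layer IV neurons, was 5.04-fold higher (3.51 to 7.31), the small heat shock protein gene Hspb3 4.89-fold, Rora 3.54-fold, Inhba 2.86-fold and Nrgn, a calmodulin-binding protein of dendrites, 3.14-fold. Of the genes that led the comparison over all members, some were inside the limits, with Galnt14 at 1.23 (0.643 to 2.26), Sv2b at 0.751, Syn2 at 1.01 and Gnb4 at 1.37. Others were higher, with Gm2694 at 2.05 (1.22 to 3.40), Plcxd3 at 2.40 (1.03 to 5.50), Negr1 at 1.83 (1.45 to 2.31) and Il1rap at 1.75 (0.838 to 3.53). Fosl2 had a ratio of 0.876 and Vegfd 1 UMI. Cck, higher over all members, was lower here at 80.3 CPM against 158 CPM (0.508, 0.394 to 0.648). Scg2 was at 276 CPM and Npy at 1086 CPM. Slc17a6 had a ratio of 1.02 (0.696 to 1.46) and Slc17a7 one of 0.797 (0.496 to 1.24).

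In the Fosl2 and Vegfd stratum, 86 of the 107 members (80.4%) leaned to neither layer group. Scg2 was at 750.4 CPM and Npy at 2468 CPM, the highest of the strata. Il1rap was 14.0-fold higher (9.36 to 21.5), Gm2694 12.8-fold (9.07 to 18.3), Galnt14 10.6-fold (7.30 to 15.9) and Unc13c, a priming factor of synaptic vesicles, 9.29-fold. Cck was at 565 CPM against 107 CPM (5.30) and Nr4a3 at 227 CPM against 44.3 CPM (5.13), with a UMI of Nr4a3 in 89.7% of the members. Rorb had a ratio of 0.0428, by the way the strata were drawn. Slc17a6 had a ratio of 0.107 and Cdh8, a cadherin, one of 0.127, and Fst had no UMI (upper bound 0.0416). Slc17a7 was 2.58-fold and Sox5 1.67-fold higher, and Tbr1 had a ratio of 1.36. Fos was at 16.6 CPM against 46.7 CPM (0.357, 0.221 to 0.551) and Egr1 had a ratio of 0.628, although Fosl2, of the same family as Fos, was used to draw the stratum. In the Rorb stratum Fos was inside the limits (0.868, 0.663 to 1.12), with a UMI in 71.4% of members against 48.3%. Egr1 had a ratio of 0.611 there.

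The 140 remaining members, all of which had Npy, resembled the Fosl2 and Vegfd stratum in part. Gm2694 was 10.5-fold higher (8.15 to 13.8), Galnt14 6.38-fold (4.72 to 8.71), Syn2 4.92-fold, Il1rap 4.75-fold and Cck 2.37-fold. Rorb (0.0773) and Nr4a2 (0.0710) were low by the way the strata were drawn, and Slc17a6 (0.275) and Cux1 (0.329) were low as well. Of these members 105 (75%) leaned to neither layer group.

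Bcl11b and Tle4 were lower in each of the 4 strata, with ratios of 0.117 to 0.183 for Bcl11b. Gm2694 was higher in each, with ratios of 2.05 to 15.7. Cux1 and Cux2 were lowest in the Fosl2 and Vegfd stratum (0.214 and 0.152).

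**Figure D5:**
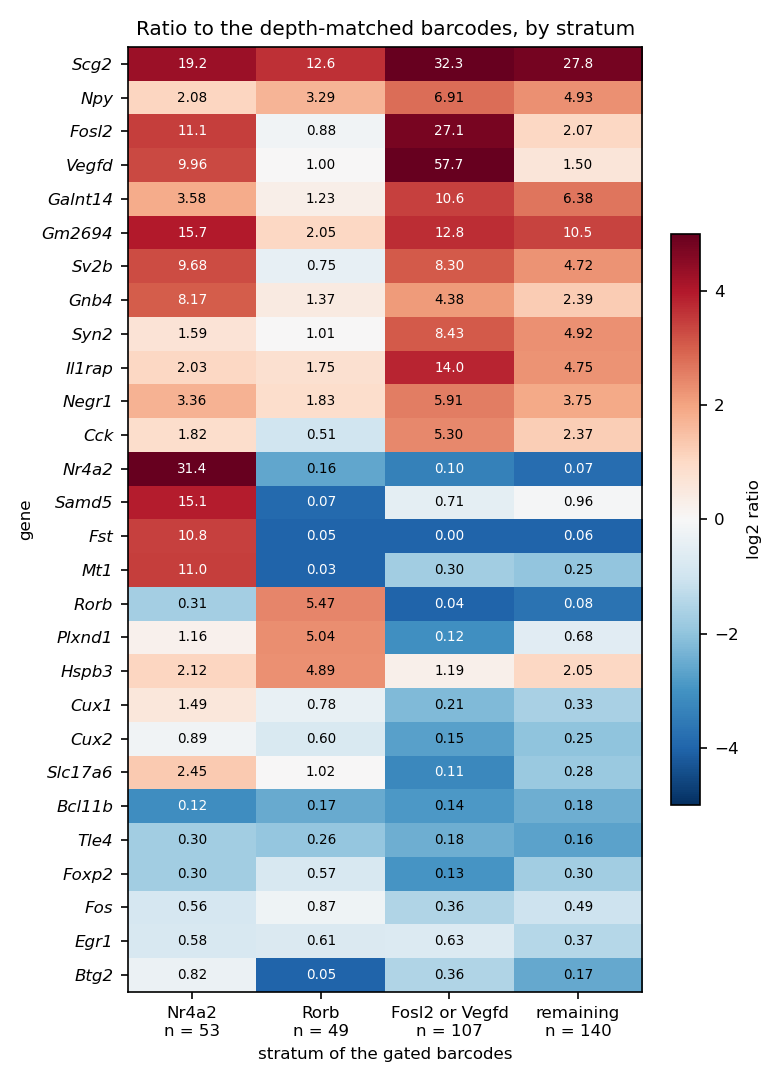
Ratio of the level in each of 4 strata of the gated barcodes to that of their own matched barcodes, for 28 genes, with the ratio printed in each cell and the log2 ratio as colour (red higher, blue lower; the colour scale ends before the extremes). The columns differ in Nr4a2, Fst, Rorb, Galnt14 and Sv2b, and Bcl11b is at 0.183 or below in each.

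The promoters of the marker genes and of the genes with the highest ratios were searched for 3 motifs tied to activity-dependent factors, because several of these genes are known to respond to activity. The sequences shown are the 2 promoters among these genes that held the cyclic AMP response element TGACGTCA, the binding sequence of CREB. They are the 150 bases before the start of each gene in RefSeq (GRCm38.p6), Scg2 on the minus strand at chr1:79440027-79440176 and Hs3st2 on the plus strand at chr7:121392146-121392295, with the element in capitals.
Scg2: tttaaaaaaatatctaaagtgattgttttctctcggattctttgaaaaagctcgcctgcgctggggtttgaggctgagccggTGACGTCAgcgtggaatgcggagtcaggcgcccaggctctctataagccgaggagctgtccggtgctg
Hs3st2: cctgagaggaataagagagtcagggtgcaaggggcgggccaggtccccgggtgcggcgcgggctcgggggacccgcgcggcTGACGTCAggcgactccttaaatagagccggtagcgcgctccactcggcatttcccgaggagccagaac

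The element began 68 bases before the start of Scg2 and 69 bases before that of Hs3st2. On either strand, TGACGTCA was found in 2.03% of the 27025 promoters of the same length (250 bases before to 50 after the start), in 4.06% of those of tested genes and in 2.30% of those of genes at least 1.5-fold higher. It was therefore no more frequent among the higher genes than among tested genes. Of the 20 genes with the highest ratios, 14 had a promoter in the table, and 1 of these held it. The AP-1 motif TGANTCA was in none of these 14, in 6.91% of promoters of higher genes, in 5.32% of those of tested genes and in 8.97% of all promoters. The Nr4a motif AAAGGTCA was also in none of the 14, and in 0.987%, 0.909% and 1.70% of these sets. A match describes letters in this window and shows no binding.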

How the data were processed

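The authors deposited, for 1 library, a table of UMI counts by gene and barcode that had been made with Cell Ranger at a sequencing company and not normalized. The submitters' processing notes also name STAR, Seurat and mm9, with no role given. The build and annotation behind the symbols could not be settled, so coordinates are given only for RefSeq promoters matched by symbol. Counts were summed per group and scaled to 1000000 non-mitochondrial UMIs (CPM). Ratios carry exact conditional Poisson 95% intervals and shares exact binomial ones, both covering counting error only. A gene was tested with at least 100 UMIs over both groups and counted as higher or lower at a ratio of 1.5 or its inverse (0.667). Named genes were the 20 highest and 10 lowest ratios found in at least 25% of the barcodes of the higher group, the 5 markers, and members of 35 lists (406 genes, 1 absent from the table). The members and lists were chosen with earlier results of these data known. Some genes of these lists entered the counts but are not reported here by name. Doublets were marked with Scrublet (scanpy 1.11.5, expected rate 8%) and kept. Random steps used 1 fixed seed, and the ratio script was tested on simulated data. Python 3.11.15, numpy 2.4.6 and scipy 1.17.1 were used.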

Additional observations from a re-analysis of the deposited data

How the results depend on the processing

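No paired analysis was possible because the data used here hold 1 library and no replicate. Counting intervals do not cover differences between animals or libraries, and cells of 1 library are not replicates. Alternatives changed 1 choice at a time. The gated share (4.79%) was 3.23% with a Scg2 minimum of 5, 5.38% with at least 2000 genes and 2.02% after thinning. The number of higher genes (489) was 997 without depth matching, 282 in members with Npy alone, 325 in deep-leaning barcodes, 159 at a ratio of 2, and 1136 or 3945 with a minimum of 20 or 1 UMIs, by the construction of the last 3. The number of lower genes (536) was 313 with 1 matched barcode for each, 1491 without matching, 216 at a ratio of 2, 1495 or 6806 with a minimum of 20 or 1 UMIs, 349 with the gate on 1 share of the UMIs, and 230 in barcodes leaning to neither layer group. Settings that change the number of barcodes or UMIs also change how many genes reach the UMI minimum. The counts of higher and lower genes therefore have no common denominator. The number of higher immediate early genes (2) was 1 with Npy alone, 4 with a minimum of 1 UMI and 1 without the members with at least 2 Nr4a2 UMIs. The upper-leaning share (21.8%) was 16.3% after thinning, 16.7% with at least 2 UMIs of Fosl2 and Vegfd, 29.3% with Npy alone, 14.9% with the gate on 1 share of the UMIs and 13.5% without the Nr4a2 members. The value of 14.9% was read from the other share of the UMIs, where the minimum of 2 UMIs is harder to reach by construction. Other than where construction gives it, the cause was not tested.

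Of 796 ratios of 47 named genes under the up to 17 alternatives that can move a single ratio, 496 stayed within the main counting interval, 293 left it on the same side of 1 and 7 crossed 1. These were Fezf2 (1.35) in upper-leaning barcodes, Gabra2 (1.05), Nr4a2 (0.813), Fos (1.43) and Egr1 (1.12) in deep-leaning barcodes, and Nr4a2 (0.104) and Bdnf (0.445) without the Nr4a2 members, which removes Nr4a2 by construction. The alternatives limited to barcodes leaning to neither group and to members without Nr4a2 were chosen after seeing the data.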

Other observations

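The 4 genes of the NFI transcription factors were looked up after values had been seen, and 2 of them passed the lower limit, against 5.0% of all tested genes. Nfib was at 597 CPM against 1291 CPM (0.463, 0.445 to 0.481) and Nfix at 1413 CPM against 2346 CPM (0.602, 0.587 to 0.618), while Nfia (0.677) and Nfic (0.937) were inside the limits. Among genes found in fewer than 25% of the gated barcodes, Runx2, a transcription factor best known from bone, was at 12 CPM against 2.56 CPM (4.69, 3.09 to 7.2), and Npas2, a partner of BMAL1 in the circadian clock, at 19.1 CPM against 4.2 CPM (4.54, 3.28 to 6.33). Pth1r, the receptor of parathyroid hormone, had a UMI in 33.0% of the gated and 12.6% of the matched barcodes (2.98, 2.38 to 3.74). Plppr4, a lipid phosphatase-related protein of glutamatergic synapses, was at 218 CPM against 73.2 CPM (2.98, 2.74 to 3.23), and had a UMI in 86.5% of the gated barcodes.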
